A study of Mus musculus with 12 samples.

Results

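A set of 9 genes for enzymes and subunits that run the citric acid cycle was followed at the RNA level in soleus, a slow hind limb muscle rich in mitochondria. The genes were Cs, Idh3a, Idh2, Ogdh, Dlst, Dld, Sucla2, Fh1 and Mdh2, 9 of the 30323 genes in the deposited table, found by matching its Ensembl identifiers to mouse symbols. All 9 were among the 10757 genes tested, those averaging 1 TPM or more (TPM is an abundance scaled by transcript length and by library). The muscles came from male C57BL/6N mice aged 24 months, all given running wheels in their home cages for 8 weeks. High functioning (HF) and low functioning (LF) animals had been told apart by how they performed on an accelerating rotarod, a turning rod that tests balance and endurance. Each class was split into mice that had a laparotomy, an opening of the abdominal wall, and controls without it, and soleus was collected 5 days after surgery. The 4 groups were HF laparotomy, HF control, LF laparotomy and LF control, with 3 libraries each. Whether each library is a separate mouse is not stated, so the p-values measure the spread between these libraries.

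The citric acid cycle burns acetyl groups from carbohydrate, fat and amino acids inside mitochondria and passes the electrons to the respiratory chain. Its 2-oxoglutarate dehydrogenase complex is built from an E1 decarboxylase (Ogdh), an E2 succinyltransferase that forms the core and carries a lipoyl arm (Dlst), and an E3 flavoprotein (Dld) that reoxidises the arm and is shared with the pyruvate, branched-chain ketoacid and glycine cleavage systems. Slow oxidative muscles such as the soleus depend on this pathway for sustained contraction. Dlst was singled out because of its HF against LF difference in these same libraries, and the other genes were listed with those results known. The HF against LF values of the 9 genes are therefore given as a description, with no test.

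In the GRCm38 build with GENCODE M21 genes, Dlst (ENSMUSG00000004789) lies at chr12:85110833-85134845 on the forward strand. Its E1 partner Ogdh (ENSMUSG00000020456) lies at chr11:6291633-6356642 on the forward strand, and its E3 partner Dld (ENSMUSG00000020664) at chr12:31331277-31351453 on the reverse strand. On the forward strand are also Cs (ENSMUSG00000005683, chr10:128337734-128362479), Idh3a (ENSMUSG00000032279, chr9:54586334-54604661), Sucla2 (ENSMUSG00000022110, chr14:73525319-73596142) and Mdh2 (ENSMUSG00000019179, chr5:135778480-135790398). On the reverse strand are Idh2 (ENSMUSG00000030541, chr7:80094846-80115392) and Fh1 (ENSMUSG00000026526, chr1:175600374-175625635). No exon of the 9 genes overlapped one of another annotated gene, and no transcript of another gene shared 95% identity over 80% of the shorter sequence with theirs.

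RefSeq promoter windows of 250 bases before to 50 after the start (GRCm38.p6) were held for 8 of the 9 genes, all but Idh3a. The windows of Dlst and Dld, the core and the shared subunit of the complex, are shown because their levels are compared throughout. Ogdh is compared with Dlst too, but it had 6 promoters and none is shown. Both windows shown hold a motif match, so they do not stand for the other genes. In capitals is a GABP motif in Dlst, read on the reverse strand from base 252 of the window, and an NRF1 motif in Dld, read on the forward strand from base 290.
Dlst, chr12:85110583-85110882, forward strand: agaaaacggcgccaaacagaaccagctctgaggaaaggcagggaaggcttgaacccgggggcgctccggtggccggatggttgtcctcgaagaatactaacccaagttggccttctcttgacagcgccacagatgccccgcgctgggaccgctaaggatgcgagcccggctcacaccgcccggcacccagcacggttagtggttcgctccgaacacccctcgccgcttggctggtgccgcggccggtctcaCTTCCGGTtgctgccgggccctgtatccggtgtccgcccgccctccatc
Dld, chr12:31351422-31351721, reverse strand: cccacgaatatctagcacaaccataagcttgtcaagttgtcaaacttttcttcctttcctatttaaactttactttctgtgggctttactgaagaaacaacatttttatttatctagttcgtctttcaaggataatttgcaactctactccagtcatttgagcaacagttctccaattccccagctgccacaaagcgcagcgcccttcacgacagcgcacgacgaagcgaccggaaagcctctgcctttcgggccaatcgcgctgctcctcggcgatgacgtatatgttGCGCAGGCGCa
Both factors are known to bind promoters of nuclear genes for mitochondrial proteins. The GABP motif ACCGGAAG, searched on both strands, was held by 2.3% of 32851 promoter windows and, among the 8 genes with a window, by Dlst. The NRF1 motif, GCGCA, any base and then GCGC, was held by 4.6% of windows and among the 8 by Dld and Sucla2. The oestrogen-related receptor motif TCAAGGTCA was held by 0.423% of windows and by no window of the 8 genes. The matches marked do not overlap each other, and a match is a description of the letters only.

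The libraries held transcripts of both slow and fast fibres. Myh7, the slow myosin heavy chain, stood between 2179 and 3339 TPM, and 8 slow fibre markers summed to between 35590 and 53043 TPM. A list of 9 fast fibre markers summed to between 25727 and 41419 TPM. Myh4, the fastest myosin, was above 30 TPM in 3 libraries, HF laparotomy 2 (90.8), LF laparotomy 1 (62.4) and LF control 3 (33.5). TPM sums ran from 956473 to 962830 and hold no read depth, so no counting interval can be given. The 13 mitochondrially encoded genes took from 26.4% of TPM in LF laparotomy 3 to 39.7% in LF control 2. These are whole-muscle values, in which fewer cells of a type and less RNA per cell cannot be told apart.

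Across the 9 genes, Dlst stood furthest below its LF level in HF muscle, with a mean of 52.2 ± 12.6 TPM in HF and 136 ± 25.6 TPM in LF (SD, n = 6 each), so that the HF mean was 38.4% of the LF mean. Ogdh, Cs, Dld and Sucla2 were also lower in HF, at 57.4% to 67.5% of their LF means. Idh3a, Mdh2, Idh2 and Fh1 stood at 84.4%, 88.2%, 93.7% and 103% of theirs. The cycle genes thus did not share a common HF to LF ratio, and the E2 core was the farthest from 1.

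**Figure D1:**
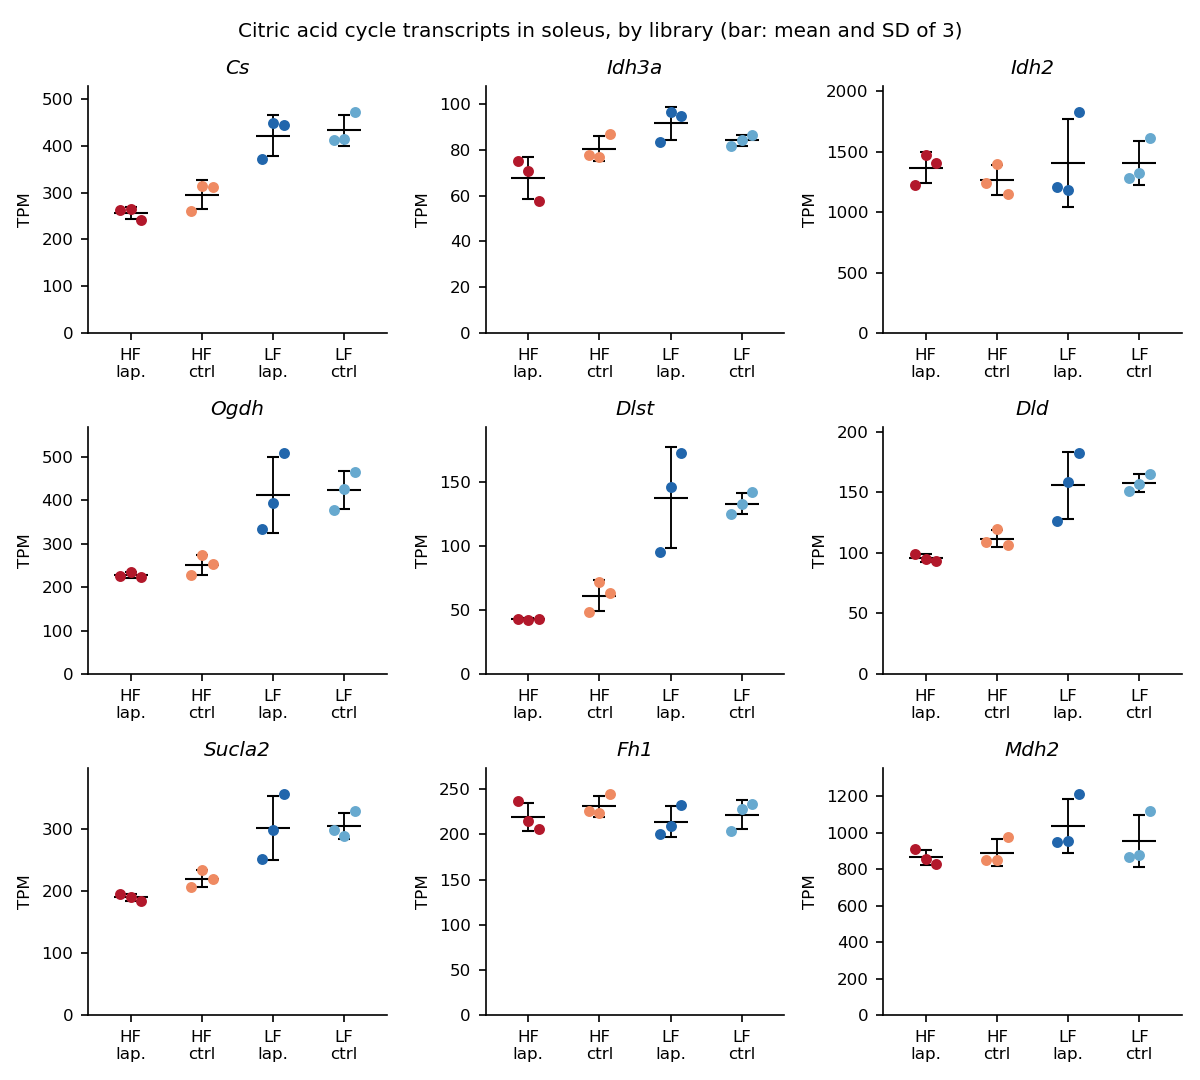
TPM of each of the 9 genes (vertical axis, from 0) in HF laparotomy, HF control, LF laparotomy and LF control soleus; points are libraries, the bar is the mean with its SD over 3. For Dlst the HF libraries lie between 42.2 and 72.3 TPM and the LF libraries between 95.4 and 173 TPM, whereas the Fh1 points of both classes fall between 200 and 244 TPM.

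Dlst, the succinyltransferase core, had 43.4, 42.2 and 43.4 TPM in HF laparotomy and 48.3, 72.3 and 63.5 TPM in HF control libraries, against 95.4, 146 and 173 TPM in LF laparotomy and 125, 133 and 142 TPM in LF control libraries. All 6 HF libraries were below all 6 LF libraries, and the 3 HF laparotomy libraries were close together while the LF laparotomy ones were spread widely. On the log2(TPM + 1) scale the HF minus LF difference was -1.22 ± 0.13 (SE) relative to the median over all 10757 genes, which itself was -0.147. Relative to the median in each treatment, the difference was -1.43 ± 0.19 after laparotomy and -1.02 ± 0.19 in controls. Rescaled to the same total without the mitochondrially encoded genes, Dlst stood at 67.9 to 116 in HF and 149 to 245 in LF libraries, again without overlap. As a share of its mean over the 12 libraries, the SD of Dlst was 50.8%, against 31.3% for Ogdh and 6.49% for Fh1.

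Ogdh, the thiamine-dependent E1 decarboxylase of the same complex, had 225, 235 and 223 TPM in HF laparotomy and 228, 275 and 253 TPM in HF control libraries, against 334, 395 and 508 TPM in LF laparotomy and 378, 427 and 465 TPM in LF control libraries. HF and LF libraries did not overlap, and the HF minus LF difference was -0.64 ± 0.10. Dld, the shared E3 subunit, had 99.2, 94.8 and 93.0 TPM in HF laparotomy and 109, 120 and 106 TPM in HF control libraries, against 126, 158 and 182 TPM in LF laparotomy and 151, 157 and 165 TPM in LF control libraries. Its libraries did not overlap either, with the lowest LF value in LF laparotomy 1. That library was also lowest of the LF libraries for Dlst, Ogdh, Cs and Sucla2, and had 62.4 TPM of Myh4. The other libraries high in Myh4 did not share this. LF control 3 (33.5 TPM) was highest of the LF controls for Dlst, Ogdh, Cs, Dld and Sucla2. HF laparotomy 2 (90.8 TPM) was highest of its group for Ogdh and Cs and lowest for Dlst. The Dld difference was -0.44 ± 0.08.

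Cs, the citrate synthase that starts the cycle and a common marker of mitochondrial content, had 263, 266 and 242 TPM in HF laparotomy and 260, 314 and 312 TPM in HF control libraries, against 372, 449 and 444 TPM in LF laparotomy and 413, 415 and 471 TPM in LF control libraries. The classes did not overlap, and the HF minus LF difference was -0.48 ± 0.08. Sucla2, the ATP-specific beta subunit of succinyl-CoA ligase, the step after the 2-oxoglutarate dehydrogenase complex, had 196, 190 and 184 TPM in HF laparotomy and 207, 235 and 220 TPM in HF control libraries, against 253, 299 and 357 TPM in LF laparotomy and 299, 290 and 330 TPM in LF control libraries. HF libraries were again all below LF libraries, with a difference of -0.41 ± 0.08. In all, 5 of the 9 genes had every HF library below every LF library and none had every HF library above. Over all tested genes 9.31% were lower without overlap in HF and 1.77% higher, and since this is the contrast on which Dlst was chosen nothing is read from the count.

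Idh3a, Idh2, Fh1 and Mdh2 were closer between the classes. Idh3a, the catalytic subunit of the NAD-dependent isocitrate dehydrogenase, had 75.1, 70.6 and 57.7 TPM in HF laparotomy and 77.8, 77.0 and 87.1 TPM in HF control libraries, against 83.5, 96.4 and 94.9 TPM in LF laparotomy and 81.8, 84.2 and 86.5 TPM in LF control libraries. HF laparotomy libraries were all below LF laparotomy libraries, while HF controls and LF controls overlapped, and the averaged difference was -0.10 ± 0.08. Idh2, the NADP-dependent mitochondrial isocitrate dehydrogenase, was the most abundant of the 9 in every library, at 1227, 1469 and 1407 TPM in HF laparotomy and 1242, 1400 and 1151 TPM in HF control libraries, against 1208, 1182 and 1823 TPM in LF laparotomy and 1283, 1322 and 1610 TPM in LF control libraries. The classes overlapped, with a difference of 0.07 ± 0.11.

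Fh1, the fumarase, varied least of the 9 genes: it ran from 206 to 237 TPM in HF laparotomy, 223 to 244 TPM in HF control, 200 to 233 TPM in LF laparotomy and 204 to 234 TPM in LF control libraries. Its HF minus LF difference of 0.20 ± 0.07 relative to the median of all genes corresponds to nearly equal TPM, because that median was itself below 0. Mdh2, the mitochondrial malate dehydrogenase that closes the cycle, ran from 830 to 910 TPM in HF laparotomy, 848 to 975 TPM in HF control, 948 to 1209 TPM in LF laparotomy and 864 to 1117 TPM in LF control libraries, and its difference was -0.02 ± 0.09. The highest LF values of Mdh2 and Idh2 came from LF laparotomy 3 and LF control 3, the libraries with the lowest mitochondrially encoded shares (26.4% and 30.6%). The same libraries held the highest LF values of Ogdh, Dld, Sucla2 and Fh1. For Dlst the highest was in LF laparotomy 3 (173 TPM), for Cs in LF control 3 (471 TPM) and for Idh3a in LF laparotomy 2 (96.4 TPM). The part of that share in the values of the cycle genes was not tested.

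By mean level over the 12 libraries the order was Idh2, Mdh2, Cs, Ogdh, Sucla2, Fh1, Dld, Dlst and Idh3a. TPM is scaled by transcript length, so these levels can be set side by side. Several neighbours kept their order in 12 of 12 libraries, namely Idh2 over Mdh2, Mdh2 over Cs, Ogdh over Sucla2, Fh1 over Dld and Dld over Dlst. Cs was above Ogdh in 6 of 6 HF and 4 of 6 LF libraries, so these neighbours were not separated in LF muscle. Dlst was below Idh3a in 6 of 6 HF libraries and above it in 6 of 6 LF libraries, and Sucla2 was above Fh1 in 1 of 6 HF and 6 of 6 LF libraries. Dlst was therefore the least abundant of the 9 transcripts in every HF library and the next to least in every LF library.

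Within the complex, Dlst was scarce relative to its partners in HF muscle. The ratio of Dlst to Ogdh was 0.196, 0.183 and 0.198 in HF laparotomy and 0.215, 0.266 and 0.254 in HF control libraries, against 0.287, 0.372 and 0.341 in LF laparotomy and 0.332, 0.313 and 0.307 in LF control libraries. Dlst to Dld was 0.443, 0.451 and 0.473 in HF laparotomy and 0.447, 0.607 and 0.601 in HF control libraries, against 0.756, 0.925 and 0.949 in LF laparotomy and 0.831, 0.848 and 0.863 in LF control libraries. In neither ratio did HF and LF libraries overlap, and since Dlst was chosen on this contrast nothing is read from that. Of the summed TPM of Ogdh, Dlst and Dld, Dlst took 11.7% ± 0.375 in HF laparotomy, 14.3% ± 1.59 in HF control, 19.4% ± 1.97 in LF laparotomy and 18.7% ± 0.372 in LF control libraries (SD, n = 3 each). On the log2 scale the HF minus LF difference was -0.58 for Dlst to Ogdh, -0.79 for Dlst to Dld and -0.99 for Dlst to the mean of the 8 other genes. The Dlst to Ogdh and Dlst to Dld ratios, and the log2 differences, were taken between TPM + 1 values. Because of the added 1 they are not wholly free of how TPM is scaled.

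The E2 cores of the sister complexes were set beside Dlst, since Dlat (pyruvate dehydrogenase) and Dbt (branched-chain ketoacid dehydrogenase) also carry lipoyl arms. The ratio of Dlst to Dlat was 0.522, 0.524 and 0.573 in HF laparotomy and 0.585, 0.716 and 0.688 in HF control libraries, against 0.815, 1.04 and 1.22 in LF laparotomy and 0.969, 0.967 and 1.02 in LF control libraries. Dlst was thus below Dlat in all 6 HF libraries and at 0.815 to 1.22 times its level in LF libraries, and the classes did not overlap. The ratio uses the same HF against LF values on which Dlst was chosen, so nothing is read from that separation. Dbt was the rarest of these cores, with 10.6 ± 1.30 TPM in HF and 15.7 ± 3.08 TPM in LF (SD, n = 6 each).

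**Figure D2:**
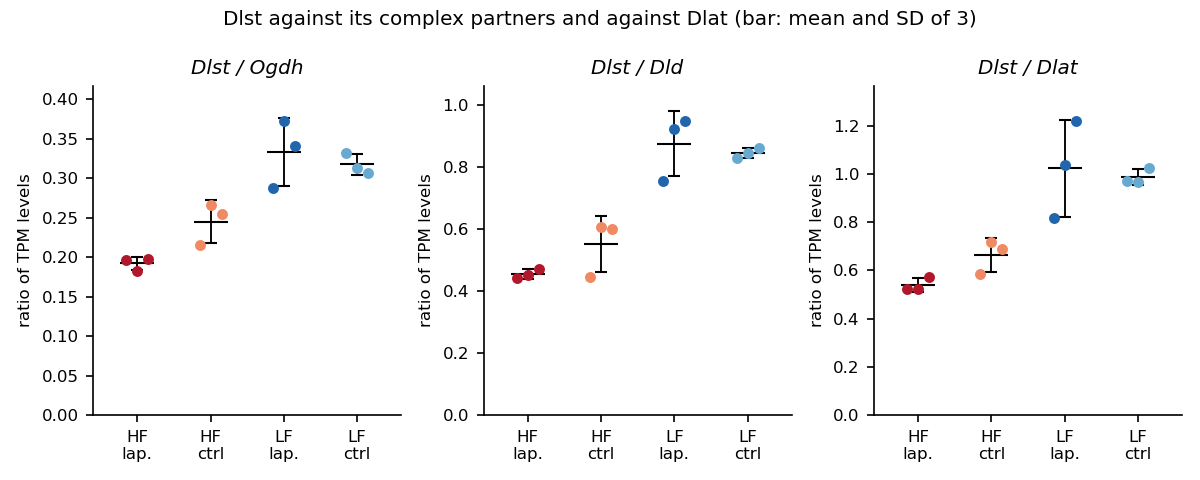
Ratio of TPM levels of Dlst to Ogdh, Dld and Dlat (vertical axes, from 0) by group. For Ogdh and Dld the ratio is between TPM + 1 values. Points are libraries, and the bar is the mean with its SD over 3. In each panel the 6 HF points lie below the 6 LF points, for Dlst to Dld between 0.443 and 0.607 in HF against 0.756 to 0.949 in LF.

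The other genes of the pathway were tested between HF and LF with limma, with p-values adjusted by Benjamini-Hochberg over all 10757 genes. Of these genes 6.03% were called higher and 35.3% lower in HF on the deposited scale. With median-of-ratios size factors 19.9% were called higher and 20.6% lower, so the balance between the directions rests on the scaling. Of the 10 other citric acid cycle subunits, 0 were higher and 6 lower, with a median of -0.11 relative to all tested genes. The 9 genes described here had a median of -0.41, but they were listed with these results known, so nothing is read from the gap. With size factors the 10 split into 1 higher and 3 lower. Sdha, the flavoprotein of succinate dehydrogenase, fell (-0.45 ± 0.10, adjusted p = 0.000827), with 290 ± 19.6 TPM in HF and 443 ± 66.3 TPM in LF (SD, n = 6 each), and Sdhd, a membrane anchor of that enzyme, fell by less (-0.18 ± 0.06, adjusted p = 0.00209). The Sdhd call was lost with size factors (adjusted p = 0.169).

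Partner subunits of the same enzymes are given beside each other, and differences between partners were not tested. Beside Sucla2 (-0.41), its GTP-specific counterpart Suclg2 fell (-0.27 ± 0.09, adjusted p = 0.00283), whereas the alpha subunit Suclg1, which pairs with either, stood at -0.01 ± 0.07 (adjusted p = 0.0798). Beside Idh3a (-0.10), Idh3b and Idh3g stood at -0.06 ± 0.08 (adjusted p = 0.0427) and -0.02 ± 0.08 (adjusted p = 0.114). Mrps36, which in mammals tethers the E3 subunit to the 2-oxoglutarate dehydrogenase core, had 77.2 ± 7.84 TPM in HF and 72.5 ± 5.10 TPM in LF (0.23 ± 0.08, adjusted p = 0.425). Sdhb, the iron-sulphur subunit of succinate dehydrogenase, stood at 0.16 ± 0.07 (adjusted p = 0.923). The p-values test the difference before the median is taken off. Exons of Idh3b overlap those of Nop56 on the opposite strand, and since the strand setting of the counting is unknown here, its values are uncertain.

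**Figure D3:**
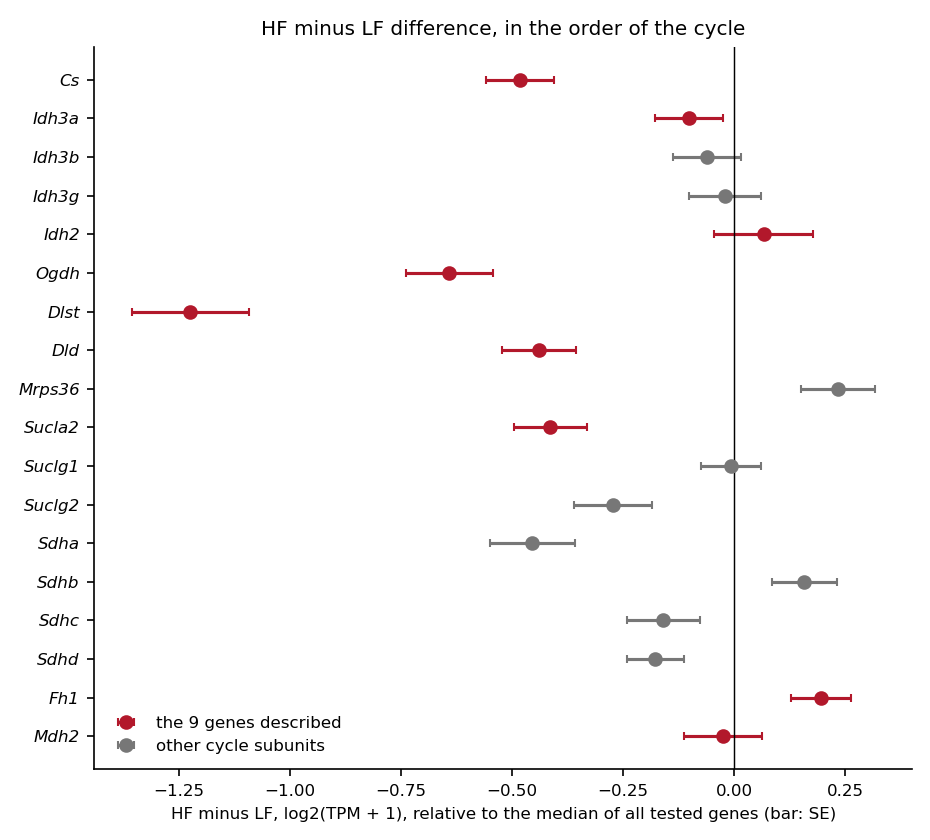
HF minus LF difference of log2(TPM + 1) relative to the all-gene median (horizontal axis) with its SE, for the 9 genes and 9 of the 10 other cycle subunits, from citrate synthase at the top to malate dehydrogenase at the bottom. Dlst lies farthest to the left at -1.22, with Ogdh at -0.64, and Mrps36, Fh1, Sdhb and Idh2 lie to the right of 0.

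Of the 11 tested genes of the sister dehydrogenase complexes (Gldc was under the limit on low values), 2 were higher and 6 lower. Dlat fell (-0.50 ± 0.07, adjusted p = 0.00031), with 85.9 ± 9.14 TPM in HF and 134 ± 9.62 TPM in LF. Pdhx, the E3-binding protein of pyruvate dehydrogenase, and Ogdhl, a relative of Ogdh, fell by 0.33 and 0.26 on the log2 scale (adjusted p = 0.00145 and 0.00305). Bckdhb, the beta subunit of the branched-chain E1, rose (0.47 ± 0.09, adjusted p = 0.015). Dhtkd1, the E1 of the 2-oxoadipate complex, which uses Dlst as its core, stood just past the threshold (0.40 ± 0.10, adjusted p = 0.0488), and its adjusted p was above 0.05 when any of 10 of the 12 libraries was left out (up to 0.118), and was 0.000874 with size factors.

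Dlst works only once lipoate is attached, so the 9 genes of lipoyl synthesis and attachment were read too. On the deposited scale 0 were higher and 4 lower, but with median-of-ratios size factors 3 were higher and 0 lower, and after removal of a length and GC trend 1 was higher and 1 lower, so no direction is given for the list. Isca1, an iron-sulphur assembly factor, stood at -0.17 ± 0.07 (adjusted p = 0.00311), Lias, the lipoyl synthase, at -0.17 ± 0.07 (adjusted p = 0.00317) and Lipt1, the lipoyl transferase, at -0.17 ± 0.09 (adjusted p = 0.015). With size factors these adjusted p-values were 0.18, 0.0728 and 0.0958.

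Of 11 genes that feed or drain cycle intermediates, 0 were higher and 8 lower, with a median of -0.31, and with size factors 1 was higher and 5 lower. Glud1, the glutamate dehydrogenase that supplies 2-oxoglutarate, fell (-0.45 ± 0.08, adjusted p = 0.000374), as did the aspartate aminotransferases Got1 (-0.44 ± 0.08, adjusted p = 0.000459) and Got2 (-0.46 ± 0.09, adjusted p = 0.000513). Among 4 cytosolic counterparts 0 were higher and 3 lower, with the same counts on size factors. These were Mdh1 (-0.53 ± 0.11, adjusted p = 0.000785), Aco1 (-0.24 ± 0.09, adjusted p = 0.00552) and Idh1 (-0.24 ± 0.09, adjusted p = 0.00556). Mdh1 and Lipt1 overlap exons of Wdpcp and Mitd1 on the opposite strand and are uncertain.

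Other features of the libraries moved with HF and LF. From the shortest to the longest quartile of genes by transcript length, the median difference was 0.16, 0.004, -0.06 and -0.11. The longest coding transcript of Dlst has 3220 bases, within the quartile that ends at 3299 bases (median 0.004). With that trend and the one with GC content removed from each library, the HF minus LF difference was -1.17 ± 0.11 for Dlst, -0.58 ± 0.07 for Ogdh, -0.44 ± 0.07 for Cs, and -0.40 for both Dld and Sucla2. Endothelial markers (9 genes, 3 called higher and 4 with size factors) summed to 352 to 506 TPM in HF laparotomy and 369 to 472 TPM in HF control libraries, against 292 to 361 TPM in LF laparotomy and 304 to 358 TPM in LF control libraries. Adipocyte markers (7 genes, 5 tested, 1 called higher) summed to 378 to 614 TPM in HF and 298 to 385 TPM in LF libraries, most of it Fabp4, which endothelial cells also make, while Plin1 did not pass 0.0552 TPM in any library. Schwann and nerve markers (8 genes, 6 tested, 3 called higher and all 6 with size factors) summed to 81.0 to 252 TPM in HF and 65.2 to 80.1 TPM in LF libraries, with the top value in HF laparotomy 3. Macrophage markers (7 genes, 5 tested) and erythroid markers (5 genes, all tested) had 0 called, and their sums overlapped between the classes. Of the fibre markers, 2 of 8 slow ones were called higher and 1 lower, and 0 of 9 fast ones higher and 2 lower. The lower fast ones were the myosin heavy chain Myh2 (-0.80 ± 0.12, limma, adjusted p = 0.000374) and Mylpf (-0.22 ± 0.14, limma, adjusted p = 0.0495). Myh2 in HF stood at 52.3% of its LF mean, and every HF library was below every LF library. Mylpf stood at 77.4% with overlap. With size factors 5 slow ones were higher and 0 lower, and 0 fast ones higher and 1 lower. The part of these markers in the cycle genes' differences was not tested.

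The series was set up to compare laparotomy with control, a contrast that was not used to choose Dlst. No gene was called in it: limma called 0% of the 10757 genes higher and 0% lower in HF, in LF and on average, and 0% for the interaction. At an unadjusted p under 0.05 (limma) there were 665 genes in HF, 291 in LF, 747 on average and 331 for the interaction. Were there no difference at all, a share of 0.05 of the 10757 genes would be awaited there, so no effect is read from these counts. With array weights 630 genes were called on average, 3 in HF, 734 in LF and 55 for the interaction, and 0 of the 9 cycle genes were among any of them. The medians of all genes, taken off below, were -0.121 in HF, -0.029 in LF, -0.074 on average and -0.091 for the interaction.

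For Dlst the laparotomy minus control difference was -0.36 ± 0.19 in HF (limma, adjusted p = 0.655) and 0.04 ± 0.19 in LF (adjusted p = 1.0). Its average was -0.16 ± 0.13 (adjusted p = 0.683), and was -0.07 without LF laparotomy 1 and -0.05 with array weights or without the 3 libraries high in Myh4. The laparotomy difference in HF minus that in LF was -0.40 ± 0.26 (limma interaction, adjusted p = 1.0). The 3 HF laparotomy libraries, at 42.2 to 43.4 TPM, were all below the 3 HF control libraries, at 48.3 to 72.3 TPM, whereas the LF groups overlapped. Idh3a, the isocitrate dehydrogenase subunit, had -0.13 ± 0.11 in HF (adjusted p = 0.655) and 0.15 ± 0.11 in LF (adjusted p = 1.0), with an interaction of -0.28 ± 0.15 (adjusted p = 1.0). In HF, 4 of the 9 genes (Dlst, Idh3a, Dld and Sucla2) had every laparotomy library below every control library, where 16.6% of all tested genes did so and 0.604% the reverse. In LF, 0 of the 9 were apart in either direction, where 3.92% of all genes were lower and 2.54% higher without overlap.

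The remaining cycle genes had averaged laparotomy differences between -0.05 for Dld and 0.12 for Idh2, with standard errors of 0.07 to 0.11 and adjusted p-values between 0.683 and 0.892 (limma). The median of the 9 was -0.02. In HF alone they ran from -0.10 for Dld to 0.23 for Idh2, and in LF alone from -0.03 for Ogdh to 0.15 for Mdh2. The balance within the complex gave no call either. The log2 ratio of Dlst to Ogdh differed by -0.14 between laparotomy and control (exact permutation test within HF and within LF, two-sided, p = 0.205), that of Dlst to Dld by -0.11 (p = 0.275, exact permutation) and that of Dlst to the 8 other genes by -0.17 (p = 0.165, exact permutation). The smallest p that the 400 arrangements allow is 0.005. In HF these differences were -0.34, -0.26 and -0.36, against 0.06, 0.04 and 0.01 in LF.

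**Figure D4:**
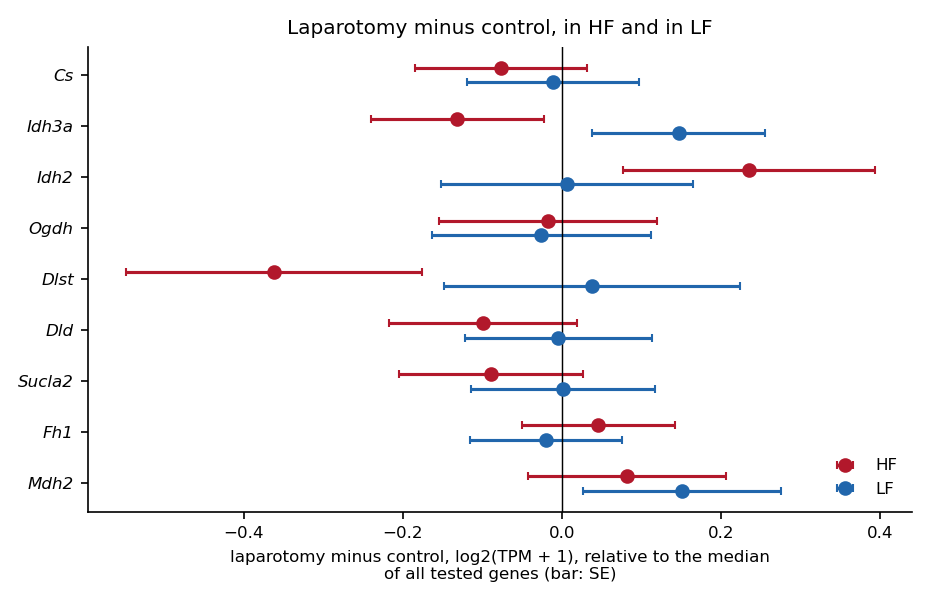
Laparotomy minus control difference of log2(TPM + 1) relative to the all-gene median (horizontal axis) with its SE, in HF (red) and in LF (blue), for the 9 genes. Dlst in HF, at -0.36, lies farthest from 0, and no gene passed the threshold in either class.

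The genes whose profile was most like that of Dlst were found by the root mean square difference between log2(TPM + 1) values, each taken relative to its mean over the 12 libraries. Among 10237 genes the nearest was Taco1, a translational activator of mitochondrially encoded cytochrome oxidase subunit I, at 0.12. It averaged 10.2 TPM in HF and 24.4 TPM in LF. After it came Ube3b (a ubiquitin ligase), Man2a2 (a Golgi mannosidase), Scn4a (the voltage-gated sodium channel of skeletal muscle), Uso1 (a vesicle tether), Pde4d (a cyclic AMP phosphodiesterase), Lars2 (the mitochondrial leucyl-tRNA synthetase), Uprt, Clasp1 (a microtubule-binding protein) and Fry, at up to 0.19. Scn4a averaged 28.4 TPM in HF and 69.2 TPM in LF, and Lars2 7.10 TPM in HF and 16.8 TPM in LF. Exons of Man2a2 overlap those of Hddc3 on the opposite strand. Of the cycle genes, Ogdh ranked 101, Cs 288, Dld 356 and Sucla2 433 by this measure, and Idh3a, Mdh2, Idh2 and Fh1 ranked 3423, 4702, 6306 and 7469. The points share libraries and scaling, so the likeness is a description.

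**Figure D5:**
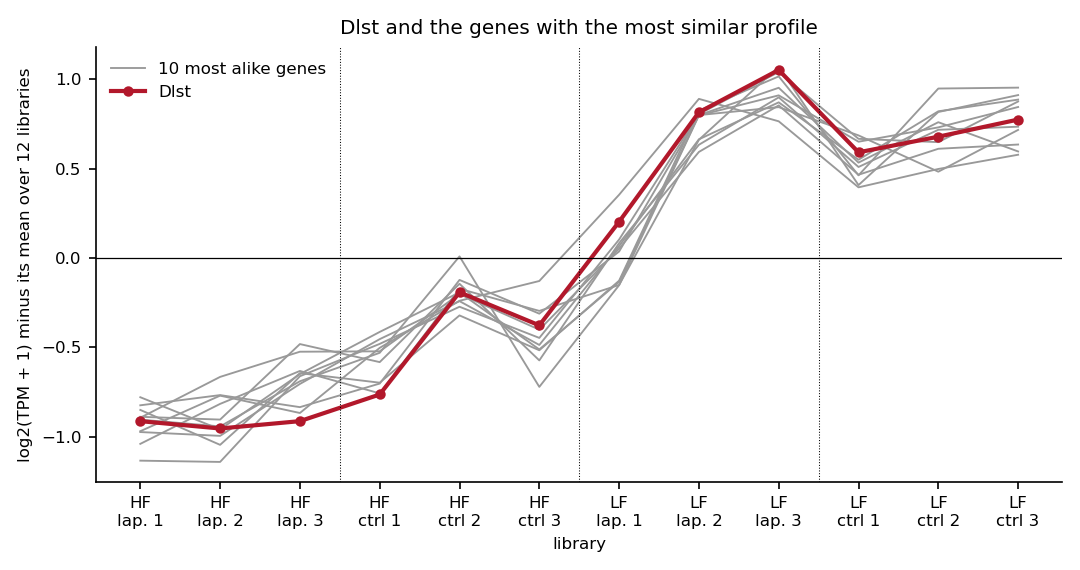
Profiles of Dlst (red) and the 10 genes most like it (grey): log2(TPM + 1) minus its mean over the 12 libraries (vertical axis), by library; lines only join the values of a gene. Dlst runs from -0.95 in HF laparotomy 2 to 1.05 in LF laparotomy 3, and lies near 0.20 in LF laparotomy 1.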

How the data were processed

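RNA was measured in 12 soleus libraries, prepared with a stranded kit after polyA selection, per the labels' protocols. The authors deposited TPM per gene. The submitters' processing notes name kallisto, DESeq2 and GRCm38 but no version. Strand setting and depth: not given in the sources used here. Of the identifiers, 29936 matched GENCODE M21 and 387 did not; 0 columns belonged to other samples. The deposited TPM were taken to log2(TPM + 1), and the 10757 genes averaging 1 TPM or more were fitted with limma 3.58.1 in R 4.3.3 (mean-variance trend, 4 group means, 8 residual degrees of freedom, two-sided, Benjamini-Hochberg over all genes, threshold 0.05). Differences are given relative to the all-gene median of their contrast. Ratios of Dlst to Ogdh, to Dld and to the 8 other genes were taken from log2(TPM + 1) and compared by exact permutation. Named were the 9 genes, up to 3 genes per direction of each pathway list by smallest p (1 such gene is not reported here), the 10 genes most like Dlst (predicted, Riken and pseudogene symbols left out) and, chosen after their values were seen, partner subunits and Dbt. Members, lists and tests were chosen with earlier results of these data known, and the length and GC correction (loess) was added after seeing the data. The fits were tested on simulated data. Replicate numbers follow deposit order and pair nothing.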

Additional observations from a re-analysis of the deposited data

How the results depend on the processing

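Alternatives were a pseudocount of 0.1, no filter, a filter at 5 TPM, size factors, quantile normalization, rescaled TPM, array weights, a fit of the compared groups alone, leaving out each library, leaving out the 3 high Myh4 libraries and, added later, removal of the length and GC trend. Under all of them 0 of the 9 genes passed the threshold for laparotomy or the interaction. The HF minus LF difference of Dlst ran from -1.36 to -1.17, and from -1.32 to -1.14 without each library in turn. Its averaged laparotomy difference ran from -0.217 to -0.052, and from -0.242 to -0.074 without each library (adjusted p from 0.239 to 1.0 in all). The count of genes called for laparotomy, 0 on the main settings, was 630 on average, 3 in HF, 734 in LF and 55 for the interaction with array weights. With no filter it was 2, 1, 5 and 2 in that order. Fitting only the compared groups gave 3 in HF and 1 in LF, and leaving out the Myh4 libraries gave 1 in LF. Without each library in turn the counts ran from 0 to 2 on average and from 0 to 1 in HF, in LF and for the interaction. The 6 lower genes among the other cycle subunits became 3 with size factors, and 5 to 7 without each library.

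Averaged laparotomy differences near 0 changed sign. With array weights Cs stood at 0.048 and Fh1 at -0.013. With no filter Idh3a stood at -0.048 and Fh1 at -0.042, and with quantile normalization Idh3a stood at -0.023 and Fh1 at -0.048. Without the Myh4 libraries Idh3a stood at -0.009, Ogdh at 0.03 and Sucla2 at 0.002. Without each library in turn Idh3a ran from -0.05 to 0.081, Ogdh from -0.071 to 0.014 and Fh1 from -0.034 to 0.052, and the laparotomy difference of Idh3a in HF from -0.242 to 0.016. None of these passed the threshold, and the cause was not tested. The ratio tests gave p from 0.08 to 0.55 without each library (exact permutation). No paired analysis was possible because the labels give no shared replicate numbers. TPM without read depth gives no counting error, and 3 libraries a group limit what laparotomy contrasts can show.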
